A study of Homo sapiens with 6 samples.

Results

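CTCF and the cohesin genes are the 10 genes CTCF, RAD21, SMC1A, SMC3, STAG1, STAG2, NIPBL, WAPL, PDS5A and PDS5B, out of 19970 protein-coding genes on chromosomes 1 to 22 and X. They were listed by name, by a rule that uses no threshold on a measured value, and all 10 were found in the gene table. The choice was made with earlier results of these data known. For each gene, the peaks of 4 deposited lists were read inside the gene and up to 5 kb from it on each side. The lists come from ChIPmentation, a form of ChIP-seq in which a transposase adds the sequencing adapters while the chromatin is still on the antibody. The cells were IMR90, human embryonic lung fibroblasts. SON, a scaffold protein of nuclear speckles, was mapped without treatment and on days 3 and 6 of ICM, which the labels give only as an abbreviation. HMGB2, a high mobility group protein that bends DNA, was mapped without treatment. All groups share the IMR90 line and carry no stated genetic change. SON chromatin was fixed with formaldehyde and HMGB2 chromatin with EGS and then formaldehyde, so target and fixation cannot be told apart in any contrast of the SON and HMGB2 lists. An HMGB2 input and another HMGB2 sample, named for the crosslinker DSG, were not analysed here.

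CTCF is a zinc finger protein that binds a long DNA motif and marks the boundaries of chromatin loops. Cohesin is a ring built from SMC1A, SMC3 and RAD21, to which either STAG1 or STAG2 binds. NIPBL loads the ring and drives loop extrusion, WAPL opens the ring and releases it from DNA, and PDS5A and PDS5B bind the ring and take part in both its release and its protection. Extruding cohesin is halted at CTCF, which makes these genes the core of the loop machinery. By its title the series is about CTCF, nuclear speckles and splicing in senescent cells. The lists show where SON and HMGB2 lay at the genes that encode this machinery, not where CTCF or cohesin bound, and they do not measure expression.

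Each group has 1 list, so no difference between conditions has a replicate check, and none was tested. The SON lists held 22362 lines without treatment, 11158 lines on day 3 and 5583 on day 6, and the HMGB2 list held 6013. No read counts are in the lists and the depth is unknown. The strength of a peak is the authors' −log10 p for its line, which in the SON lists is the lower value of 2 replicates. It is used here only to rank peaks within a list, as a rank from 1 for the strongest, or as a percentile, where 100 is the strongest end. Ranks and percentiles from lists of such different length do not measure a change between lists. The global irreproducible discovery rate (IDR) of a SON peak is the expected share of irreproducible peaks among those ranked at least as well. Its largest values were 0.431, 0.447 and 0.63 in the 3 SON lists. The replicates had equal values in 55.9%, 29.0% and 9.49% of the lines of these lists. A small IDR is therefore not read as agreement of independent libraries, and IDR values are not compared between lists. Of 11 fibroblast marker genes 10 carried an untreated SON peak, all except VIM, then 4 at 3 days and 3 at 6 days, where the shares of all protein-coding genes were 57.1%, 41% and 21.5%. In the untreated list 1 of 4 epithelial, 1 of 3 blood and 2 of 3 endothelial marker genes carried one too. The median percentile of the fibroblast genes with a peak was 53.0, below the blood gene PTPRC at 85.8 and the endothelial gene VWF at 89.2.

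In untreated cells SON peaks were present at 9 of the 10 genes, all except PDS5A. After 3 days of ICM they were listed at 7 genes (CTCF, RAD21, SMC1A, SMC3, STAG1, WAPL and PDS5B) and after 6 days at 4 (CTCF, RAD21, SMC1A and STAG1). HMGB2 peaks were present at 4 genes, CTCF, STAG1, STAG2 and NIPBL. By the same rule 57.1% of all protein-coding genes carried an untreated SON peak, 41% a 3-day peak, 21.5% a 6-day peak and 23.3% an HMGB2 peak. The 10 genes are long, from 28.8 kb for RAD21 to 416.1 kb for STAG1, and a longer window meets more peaks. Among the 8610 protein-coding genes within this range of length the shares were 67.7%, 48.5%, 25.8% and 25.6%. CTCF and STAG1 were the members with a peak in all 4 lists, against 10.6% of all protein-coding genes. CTCF, RAD21, SMC1A and STAG1 had a peak in all 3 SON lists, against 20.3%. With a global IDR of at most 0.05, 2 genes (RAD21 and STAG1) had a 6-day SON peak, against 5.02% of all genes. With no flank 1 gene of 10 (STAG2) had an HMGB2 peak, against 15.6%. PDS5A was the member with none in any list, against 40.3%.

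**Figure D1:**
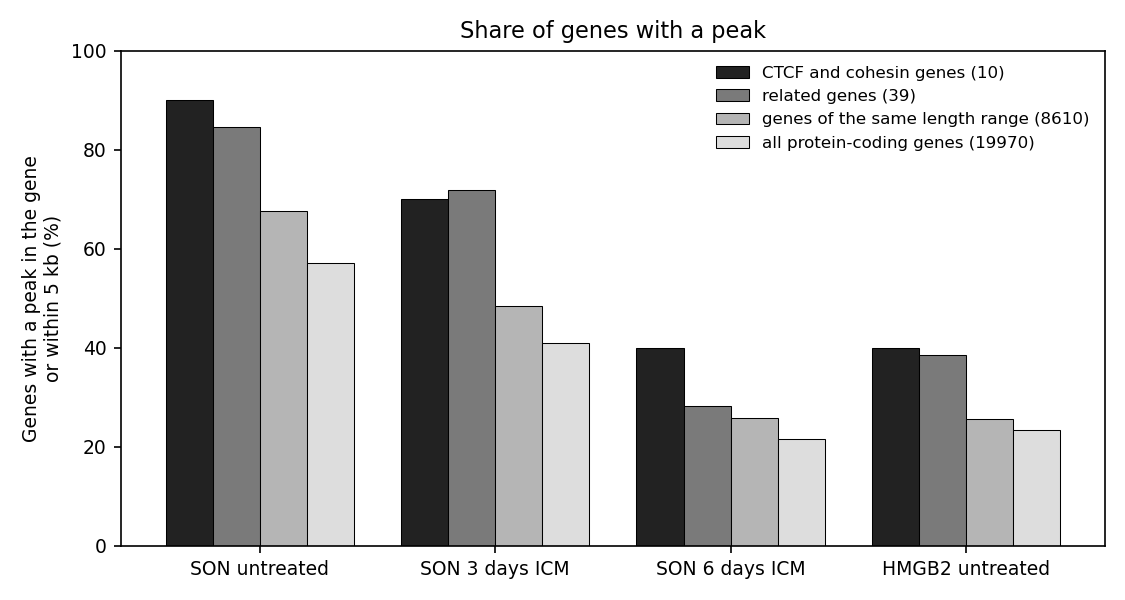
Share of genes (percent, y axis) with a peak in the gene or within 5 kb, for each of the 4 lists. Bars give the 10 CTCF and cohesin genes, 39 related genes of cohesin regulation, boundaries and condensin, the 8610 genes of the same length range, and all 19970 protein-coding genes. The black bars stand at 9, 7, 4 and 4 of 10 genes.

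The SON peaks fell into a set at the starts of the genes and a set elsewhere. Of the 32 SON peaks at these genes, 19 lay within 1 kb of an annotated start or, for RAD21, whose strand is not in the table, of the gene end with the higher coordinate. These 19 had a median percentile of 84.0 in their lists, from 34.8 to 99.1, and none had the largest IDR of its list. The other 13 had a median percentile of 20.6, from 0.179 to 78.0, and 9 of them had the largest IDR of their list. Most of the 13 lay inside STAG1, and the 19 come from 8 genes, most of them counted again in a later list. Over all lines of the 3 SON lists 32.58%, 31.94% and 38.99% had the largest IDR. The strongest start peak of each protein-coding gene with an annotated start had a median percentile of 71.8, 69.8 and 65.5. The split was not made over all peaks, so nothing particular to these genes is read from it. A start peak was 622 bp wide at the median and a peak elsewhere 371 bp. Counted only within 1 kb of a start, SON peaks were present at 8 of the 10 genes without treatment, 7 genes at 3 days and 4 at 6 days, against 40.1%, 28.2% and 11.6% of all protein-coding genes. HMGB2 peaks were present there at 3 of the 10, against 15.2%. Among genes of the same length range these shares were 45.4%, 31.3% and 11.8% for SON and 16.2% for HMGB2.

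**Figure D2:**
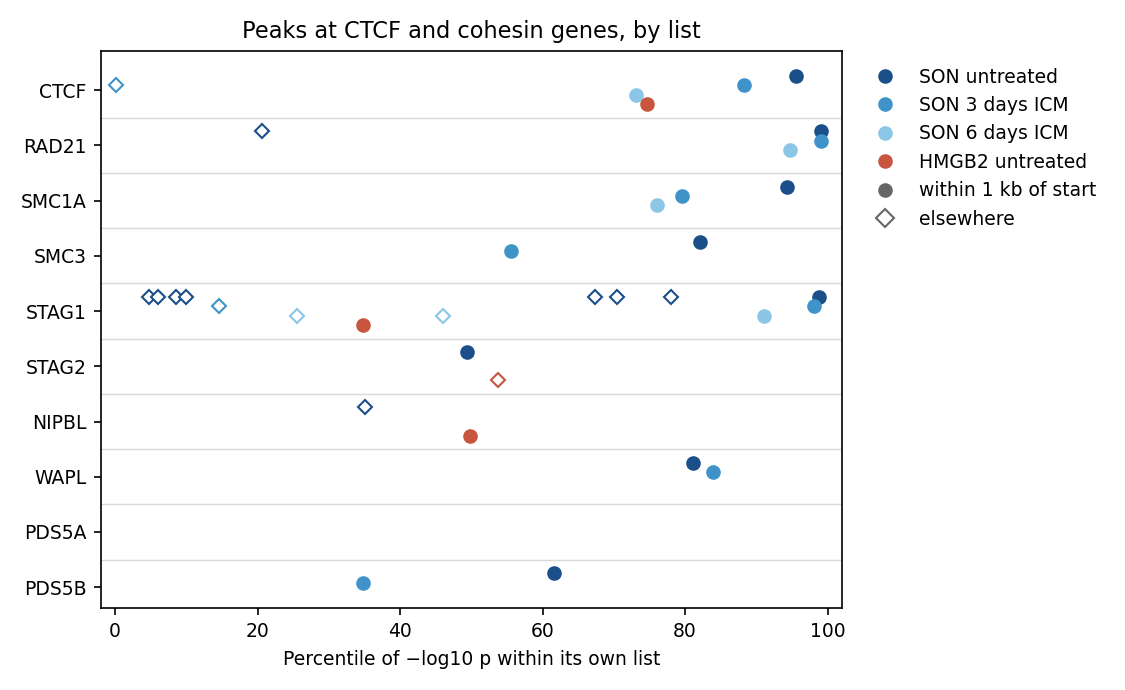
Each peak at a CTCF or cohesin gene (rows) by the percentile of its −log10 p within its own list (x axis), coloured by list. Filled circles lie within 1 kb of a start (for RAD21, of its higher-coordinate end) and open diamonds lie elsewhere. RAD21 and STAG1 hold the highest percentiles in every SON list, and the row of PDS5A is empty.

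CTCF, the boundary factor itself, spans chr16:67562526-67639177 on GRCh38 and carried a peak at its start in every list. The untreated SON peak, chr16:67561920-67562770, had a −log10 p of 37.1 in both replicates, rank 982 of 22362 and a global IDR of 0.00171. At 3 days the peak chr16:67561878-67562769 had a −log10 p of 20.8 in replicate 1 and 61.9 in replicate 2, rank 1303 of 11158 and an IDR of 0.00104. The 6-day peak, chr16:67562009-67562512, had 14.1 and 10.7 in the replicates, rank 1497 of 5583 and an IDR of 0.127. It was narrower, at 504 bp against 851 bp in untreated cells, and ended 14 bp short of the start. The 3 summits lay at -283, -303 and -314 bp from the start, where negative is upstream, within 31 bp of each other. The HMGB2 peak, chr16:67562031-67562311, had a fold enrichment of 4.52 over the caller's background, a −log10 p of 12.6, rank 1519 of 6013 and a q of 4.23e-09. It lay wholly inside each of the 3 SON peaks, with its summit at -363 bp and 80 bp from the untreated SON summit. All 4 peaks also overlapped the genes CTCF-DT and LOC124903703. A further 3-day SON peak, 3.17 kb beyond the other end of the gene, had rank 11138 of 11158, an IDR of 0.447 and no counterpart in the other lists.

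The 250 bases upstream of the CTCF start are printed because peaks of both factors meet there: all 250 lay under the untreated and 3-day SON peaks and 237 under the 6-day peak, while the HMGB2 peak reached 36 of them. Capitals mark the bases under the HMGB2 peak (RefSeq, GRCh38.p14, chr16:67562276-67562525, plus strand).
CTCF: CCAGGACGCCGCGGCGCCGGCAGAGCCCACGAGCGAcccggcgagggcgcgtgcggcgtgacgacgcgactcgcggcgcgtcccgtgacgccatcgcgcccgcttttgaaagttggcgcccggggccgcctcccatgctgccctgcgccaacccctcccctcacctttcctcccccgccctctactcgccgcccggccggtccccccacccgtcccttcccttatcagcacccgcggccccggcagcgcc

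Of the 3 proteins that close the cohesin ring, RAD21, the kleisin that bridges the SMC heads, had the strongest SON peak of the 10 genes in every SON list. It lay at the end of the gene with the higher coordinate, which the genes RAD21-AS1 and MIR3610 overlap, at chr8:116874610-116875231 in untreated cells. Its −log10 p was 75.5 in both untreated replicates, rank 205 of 22362. At 3 days it was 97.4 in replicate 1 and 397 in replicate 2, rank 101 of 11158, and at 6 days 19.9 and 51.2, rank 296 of 5583. The peak was thus among the strongest 1% of the untreated and 3-day lists, with an IDR of 0.000594 and 1e-05, and near percentile 94.7 at 6 days, with an IDR of 0.00162. Replicate 2 exceeded replicate 1 in both treated lists. Summits lay 118, 143 and 148 bp beyond the gene end. The nearest HMGB2 peak was 797 kb from the gene. A second untreated peak inside RAD21, at chr8:116849238-116849701, was weak, at rank 17742 with an IDR of 0.431, and no later list held it.

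SMC1A and SMC3 form the arms of the ring. At SMC1A (chrX:53374149-53422728, minus strand) the SON peak lay over both annotated starts in all 3 lists, with a −log10 p of 32.9 in both untreated replicates. The replicate values were 14.9 and 17.0 at 3 days and 11.2 and 11.1 at 6 days. Its rank was 1273 of 22362, 2272 of 11158 and 1339 of 5583, and the IDR was 0.00211, 0.0098 and 0.108. The peak also overlapped RIBC1, the protein-coding neighbour, so it cannot be assigned to one of the genes. At SMC3 (chr10:110567695-110606048, plus strand) the untreated peak had a −log10 p of 19.01 in both replicates, rank 3989. The 3-day peak had 9.73 and 11.3, rank 4954 of 11158, and the 6-day list held no SON peak nearer than 59.0 kb, in RBM20. Neither gene had an HMGB2 peak, the nearest being 292 kb from SMC1A and 197 kb from SMC3. The SMC3 summits lay at -399 bp in untreated cells and -308 bp at 3 days, and both peaks overlapped LOC105378483.

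STAG1 and STAG2 are alternative subunits of the same ring, and their genes carried SON peaks of different number and place. STAG1 (chr3:136336236-136752378, minus strand) carried 8 SON peaks without treatment, then 2 (3 days) and 3 (6 days), with 1 at the start in each list. Its start peak, chr3:136752268-136753025 in untreated cells, had a −log10 p of 65.2 in both replicates, rank 275 of 22362 and an IDR of 0.000713. At 3 days it had 64.1 in replicate 1 and 169 in replicate 2, rank 208 of 11158, and at 6 days 15.8 and 17.2, rank 499 of 5583. These were among the strongest 10% of peaks in each list. An HMGB2 peak, chr3:136752427-136752614, lay inside all 3 SON peaks and ended 49 bp short of the gene, with a fold enrichment of 3.96 and rank 3902 of 6013. The HMGB2 peak was thus in the weaker part of its list, at percentile 34.8, where the SON peaks were near the top of theirs. The 3 SON peaks also overlapped STAG1-DT.

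The upstream 250 bases of STAG1 are printed for comparison with CTCF. All 250 lay under each of the 3 SON peaks, and capitals mark the 188 under the HMGB2 peak (RefSeq, GRCh38.p14, chr3:136752379-136752628, minus strand).
STAG1: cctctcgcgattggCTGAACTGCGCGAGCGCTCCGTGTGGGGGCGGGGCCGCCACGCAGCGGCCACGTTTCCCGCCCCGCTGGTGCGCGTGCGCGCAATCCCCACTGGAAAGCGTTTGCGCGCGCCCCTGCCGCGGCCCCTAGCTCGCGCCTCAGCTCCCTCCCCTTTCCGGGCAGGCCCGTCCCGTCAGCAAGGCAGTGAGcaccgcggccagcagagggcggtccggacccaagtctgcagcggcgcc

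Inside STAG1 the untreated list held 7 more SON peaks, between 92.9 and 408 kb from the start. The 3 strongest of them, 278, 288 and 408 kb downstream, had a −log10 p of 16.9, 14.2 and 13.3, and they were the ones met again later. The peak at 278 kb was overlapped at 3 days but not at 6 days, where those at 288 and 408 kb were overlapped instead. All 3 of these later counterparts had the largest IDR of their list, 0.447 at 3 days and 0.63 at 6 days. The other 4 untreated peaks in the gene had percentiles from 4.73 to 10.0 and an IDR of 0.431, and none was overlapped later. The gene table gives no exons, so peaks in a gene are not assigned to exons or introns.

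**Figure D3:**
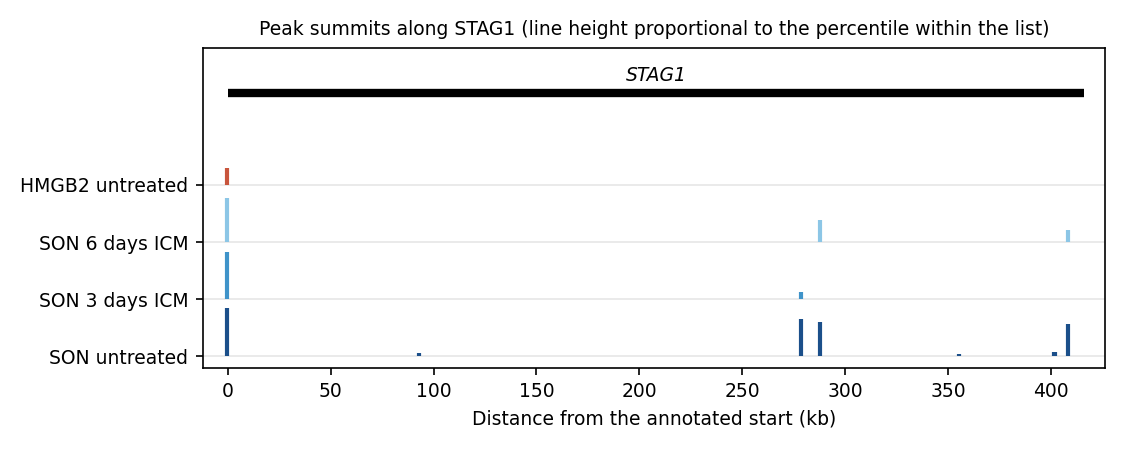
Summits of peaks along STAG1, by distance from the annotated start (kb, x axis), with 1 row per list. The height of each line is proportional to the percentile of the peak within its list. The start peak is present in all 4 rows, and HMGB2 has no other.

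STAG2 (chrX:123960560-124102656, plus strand) has 3 annotated starts and carried no peak over any of them. Its 1 untreated SON peak, chrX:123962963-123963325, had its summit 1145 bp downstream of the last start, a −log10 p of 9.84 in both replicates and rank 11316 of 22362. Its near edge was within 1 kb of that start, which counts it among the start peaks. An HMGB2 peak lay at the same place, chrX:123963148-123963336, with a fold enrichment of 4.32, rank 2776 of 6013 and a summit 9 bp from that of SON. Neither treated list had a SON peak at STAG2. The nearest was 100.3 kb away at 3 days, in XIAP, and 3710 kb away at 6 days, in ZBTB33.

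NIPBL, the loader, lacked a SON peak at its start. Its span is chr5:36876769-37066413, and its 1 untreated SON peak, chr5:36897631-36897983, lay 21.1 kb inside the gene, with a −log10 p of 8.18 in replicate 1 and 9.71 in replicate 2, rank 14527 of 22362. The 3-day and 6-day lists held none nearer than 219 kb. The HMGB2 peak of NIPBL was at another place, chr5:36875871-36876045, its summit at -754 bp from the start, inside NIPBL-DT. It had a fold enrichment of 6.07, the highest of the 4 HMGB2 peaks at these genes, and rank 3016 of 6013. NIPBL was the member at which both factors had a peak and these did not overlap.

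WAPL, the release factor, carried a start peak in untreated cells and at 3 days. The untreated peak, chr10:86521589-86522160, had a −log10 p of 18.4 in both replicates, rank 4224 of 22362. The 3-day peak, chr10:86521669-86522406, had 17.2 and 34.5, rank 1787 of 11158 and an IDR of 0.00261. Summits were at -82 and -56 bp from the start. At 6 days and in the HMGB2 list the nearest peak was 234 and 235 kb from the gene, both in BMPR1A.

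PDS5A and PDS5B, the paralogs that bind the ring with WAPL, also carried different peaks. PDS5B (chr13:32586452-32778019, plus strand) had an untreated start peak, its −log10 p 11.99 in both replicates and rank 8573 of 22362. At 3 days the peak had 7.83 and 9.19, rank 7279 of 11158 and an IDR of 0.0697. PDS5B had no 6-day peak within 116 kb and no HMGB2 peak within 429 kb. PDS5A (chr4:39822863-39977911, minus strand) had no peak in any list. The nearest SON peak was 77.9 kb away without treatment, 125 kb at 3 days and 184 kb at 6 days, and the nearest HMGB2 peak 78.2 kb away.

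The 250 bases upstream of each start are printed to compare the pair, with every CG dinucleotide in capitals. Those of PDS5B (chr13:32586202-32586451, plus strand) lay wholly under the untreated and 3-day SON peaks, and those of PDS5A (chr4:39977912-39978161, minus strand) under none. They hold 41 and 34 CG and are 78% and 75.2% G or C, both above the medians of 16 CG and 62% over 22131 upstream windows of protein-coding genes. The windows of this pair were close in composition, and a relation between composition and peaks was not tested (RefSeq, GRCh38.p14).
PDS5B: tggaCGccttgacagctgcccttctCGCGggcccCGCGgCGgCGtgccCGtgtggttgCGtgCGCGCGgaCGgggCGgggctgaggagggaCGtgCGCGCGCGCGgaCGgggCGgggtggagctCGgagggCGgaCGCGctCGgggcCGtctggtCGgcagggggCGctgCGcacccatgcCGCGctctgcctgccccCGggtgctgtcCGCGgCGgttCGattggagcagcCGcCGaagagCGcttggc
PDS5A: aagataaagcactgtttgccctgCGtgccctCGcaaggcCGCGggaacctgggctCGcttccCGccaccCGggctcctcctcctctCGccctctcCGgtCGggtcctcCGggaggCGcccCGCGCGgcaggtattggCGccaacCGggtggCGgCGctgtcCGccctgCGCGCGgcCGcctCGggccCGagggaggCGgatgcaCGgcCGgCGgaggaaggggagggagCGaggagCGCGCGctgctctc

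**Figure D4:**
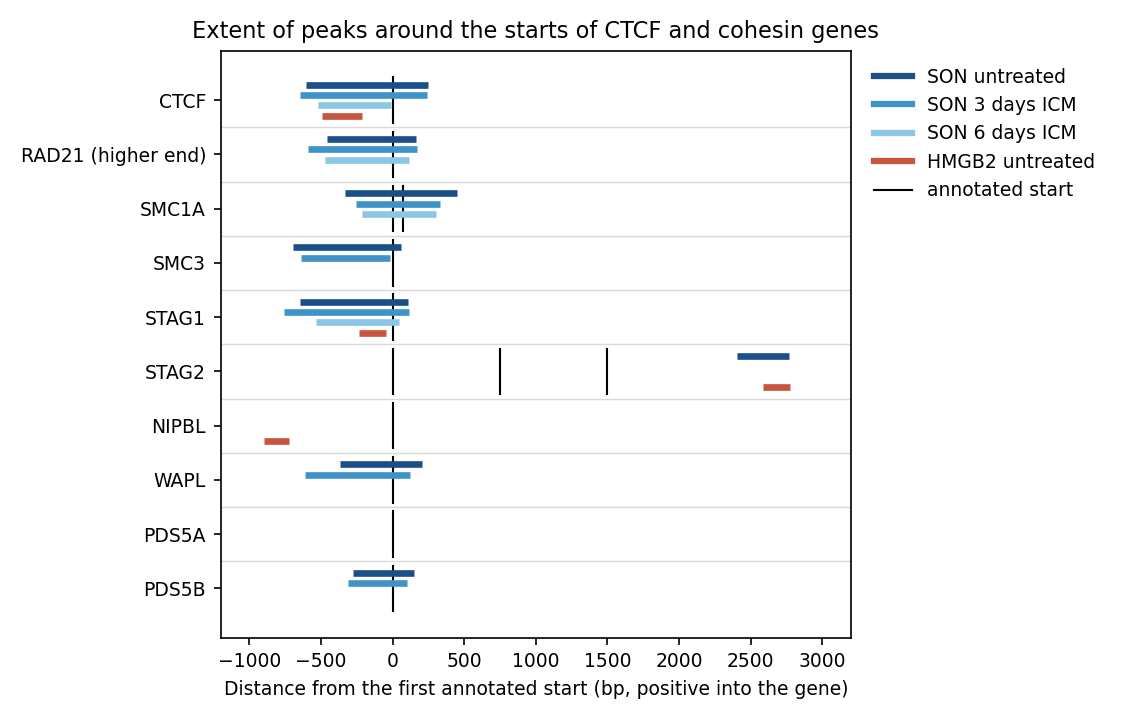
Extent of each peak around the start of each gene (bp from the first annotated start, positive into the gene, x axis), coloured by list, with black lines at annotated starts. RAD21 is drawn from its higher-coordinate end. SON peaks of different lists lie over each other at CTCF, RAD21, SMC1A, SMC3, STAG1, WAPL and PDS5B. The 1 SON peak of STAG2, untreated, lies beyond its last start.

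At the 7 genes whose start peak was found in more than 1 SON list, the peaks were at the same place. In 15 pairs of such peaks, at least 86.0% of the shorter peak was overlapped, and summits were 27 bp apart at the median, from 5 to 91 bp. In 7 pairs of a SON and an HMGB2 peak, at CTCF, STAG1 and STAG2, at least 94.2% of the shorter peak was overlapped and summits were 60 bp apart at the median. Only overlapping peaks were paired, which leaves out NIPBL, and the HMGB2 peaks of CTCF and STAG1 count once per SON list. The HMGB2 peak was the shorter in each pair, so a high overlapped share is likely once peaks meet. No value over all genes was computed for these pairs. Of the 7 members with an untreated SON start peak and an annotated start, 6 had the summit upstream of it, all except STAG2, as did 6 of 6 at 3 days, 3 of 3 at 6 days and 3 of 3 for HMGB2. Over all protein-coding genes with such a peak 87.2%, 88.2%, 90.4% and 82.8% did, so the side of the summit was near the background. The members' untreated SON summits lay at a median of -124 bp and those of all genes at -97 bp. Untreated start peaks of the 7 members were 758 bp wide at the median, against 516 bp for all genes. The widths were 681 against 541 bp at 3 days (6 members) and 521 against 480 bp at 6 days (3 members). For HMGB2 the median was 188 bp over 3 members, against 256 bp. Peaks were not matched for strength, so no width is read as a trait of these genes.

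The genes whose strongest SON peak was still listed at 6 days were those with the highest untreated percentiles. CTCF, RAD21, SMC1A and STAG1, each found at both 3 and 6 days, had untreated percentiles from 94.3 to 99.1. SMC3, WAPL and PDS5B, found at 3 days but not at 6 days, had 82.2, 81.1 and 61.7. STAG2 and NIPBL, found in neither later list, had 49.4 and 35.0. The same order held over all genes. Where the strongest untreated peak of a gene had a percentile of at least 90, 98.7% of genes had it overlapped at 3 days and 78.3% at 6 days. Between 60 and 90 these shares were 77.5% and 27.8%, and under 60 they were 31.8% and 6.76%. The members' counts of 4 of 4, 3 of 3 and 0 of 2 at 3 days and 4 of 4, 0 of 3 and 0 of 2 at 6 days followed this background, and nothing particular to them is read from it. An HMGB2 peak overlapped the strongest untreated SON peak at CTCF and STAG1 but not at RAD21 and SMC1A, and 46.3% of all genes in the top class had such an overlap. In the middle class it did at none of 3, against 27.9%, and in the lowest class at STAG2 but not NIPBL, against 13.9%.

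The replicate values of the start peaks differed by list. At all 8 untreated start peaks the values of replicates 1 and 2 were equal, as in 55.9% of all lines of that list. None of the 7 start peaks at 3 days had equal values, and replicate 2 was the higher in all 7, where 29.0% of all lines were equal and replicate 2 was the higher in 56.2%. At 6 days replicate 2 was the higher at RAD21 and STAG1 and replicate 1 at CTCF and SMC1A, where 9.49% of all lines were equal, replicate 2 was the higher in 46.5% and replicate 1 in 44.0%. Nothing particular to these genes is read from the order of the replicates. The line's value at 3 days is therefore that of replicate 1 for each start peak. The sources used here do not say how the replicates were made or how much they share. Equal values in both replicates are therefore not read as a reproduced signal.

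**Figure D5:**
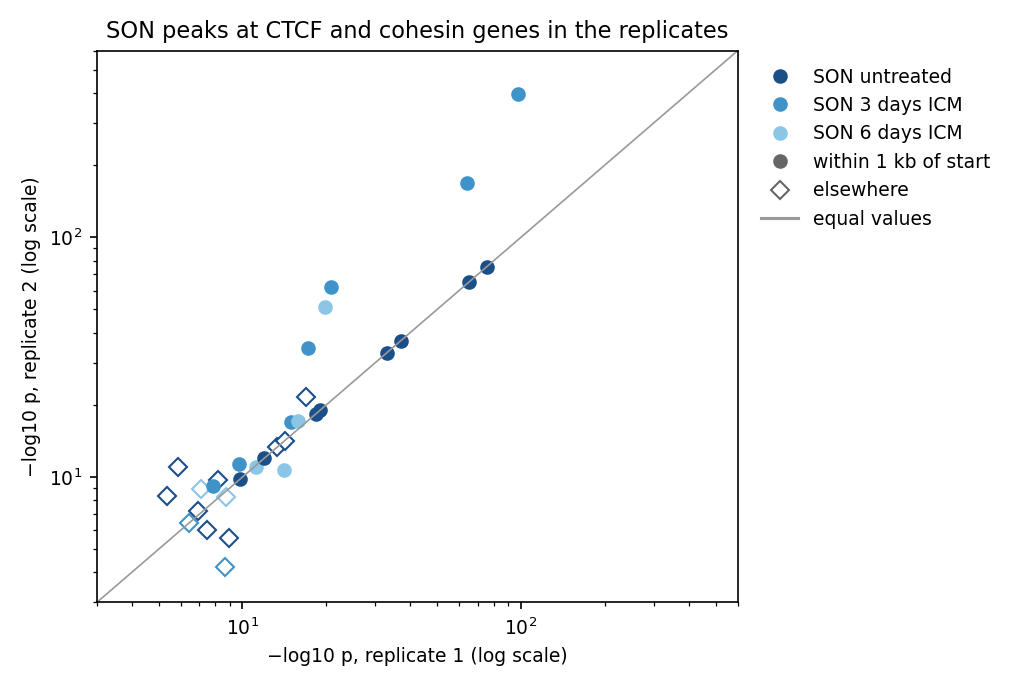
−log10 p of each SON peak at the 10 genes in replicate 1 (x axis) and replicate 2 (y axis), both on log scales, coloured by list, with the line of equal values. Untreated start peaks lie on the line, and 3-day start peaks lie above it, the farthest being RAD21 at 97.4 and 397.

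The windows from 250 bases before to 50 after each annotated start were searched for 6 short motifs on both strands, whether or not a peak lay there. RAD21 was not in the promoter table, and 9 members were searched. Some genes have several windows, so a gene is counted once if any of its windows holds a match, and the shares given are of the 15811 protein-coding genes in that table, counted the same way. A match is a description of letters and not a bound site. The motifs were chosen after these promoter letters were seen, so no enrichment among the members is read from the shares here or below. The letters GCCATNTTG, the core of the motif of YY1, a zinc finger factor of promoters, were found in 3 members, CTCF, SMC3 and PDS5B, against 4.67% of genes (3.52% of 22131 windows). The matches began at base 28, -8 and 1, in that order, counted from 1 at the first transcribed base. Those of CTCF and PDS5B lay under the untreated and 3-day SON peaks, and that of SMC3 under the untreated peak. They are printed with 10 bases on each side, the match in capitals, because all 3 have the same 9 letters on the gene's own strand (chr16:67562543-67562571, chr10:110567677-110567705 and chr13:32586442-32586470).
CTCF: ccgcgccgccGCCATTTTGtgtctgagcc
SMC3: cacgagcgccGCCATTTTGtttggctgag
PDS5B: agcgcttggcGCCATTTTGaagcggagag

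The core of the motif of NRF1, a factor of housekeeping promoters, was found in STAG1, STAG2 and WAPL, against 9.68% of genes (7.4% of windows). The match of STAG1 lay under all 3 SON peaks and the HMGB2 peak, that of WAPL under the untreated and 3-day SON peaks, and that of STAG2 under none. A core of the CTCF motif was found in STAG1 alone among the 9, at 2 places, against 3.35% of genes (2.52% of windows). Both lay under all 3 SON peaks and outside the HMGB2 peak. The pair is printed with the match in capitals, since the series concerns CTCF (chr3:136752398-136752427 and chr3:136752340-136752369, minus strand, the matches beginning at base -40 and 19).
STAG1 upstream: gcaccgcggCCAGCAGAGGGCggtccggac
STAG1 downstream: tggaaaatgCCACCAGATGGCgggttagga

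Among the other motifs, GGGGCGGGG, read by factors of the SP family, was in 3 members, against 26.3% of genes (20.6% of windows), and CCAAT, read by NFY, in 5, against 42.1% (34.6%). CCGGAAG, read by ETS factors, was in SMC1A and NIPBL, against 16.5% (12.8%). No match of one motif overlapped a match of another in these members. Annotated lncRNA genes lay at most of these starts. At 8 of the 10 genes, all except SMC1A and PDS5A, a lncRNA gene lay within 1 kb of the start, against 21.5% of all protein-coding genes. For RAD21 a gene end stood for the start. The SON start peaks of CTCF, RAD21, SMC3, STAG1, WAPL and PDS5B overlapped such a gene. Like that of SMC1A, they cannot be assigned to one gene.

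In the SON lists the strongest peak of each member with a peak had a median percentile of 82.2 without treatment over 9 genes, 84.0 at 3 days over 7 and 83.5 at 6 days over 4. Over all genes with a peak the medians were 71.9, 66.2 and 59.4. For HMGB2 the median of the 4 members was 51.7, against 59.6. These medians cover only the genes that had a peak.

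Genes of the same processes were then read by the same rule in 3 lists of 39 genes in all. Of the 13 genes that load, acetylate or release cohesin or serve it in mitosis and meiosis, 10 carried an untreated SON peak, 8 a 3-day peak, 2 a 6-day peak and 3 an HMGB2 peak. These are 76.9%, 61.5%, 15.4% and 23.1%, against 57.1%, 41%, 21.5% and 23.3% of all protein-coding genes. The 6-day and HMGB2 shares, of 2 and 3 genes, were near the background for so few genes, and nothing is read from them. MAU2, the partner of NIPBL in the loader, had a −log10 p of 30.3 in untreated cells and 15.4 at 3 days, and no peak at 6 days or in HMGB2. ESCO1, which acetylates SMC3, was present in all 3 SON lists at percentiles of 91.3, 83.5 and 31.1. HDAC8, the deacetylase of SMC3, and the meiotic subunits SMC1B and REC8 had no peak in any list.

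Of 12 relatives and partners of CTCF at boundaries, 10 carried an untreated SON peak, 9 a 3-day peak, 4 a 6-day peak and 7 an HMGB2 peak. ZNF143, a zinc finger protein of promoters and loop anchors, had the strongest untreated SON peak of the 39 genes, with a −log10 p of 112, followed by MAZ with 103 and NCAPG with 39.7. Of the 39 genes in the 3-day list MAZ had 121, ZNF143 53.5 and NCAPH2 28.4. The 6-day order was MAZ with 29.3, ZNF143 with 23.6 and NCAPD3 with 15.7. ZNF143, MAZ and CHD8, a chromatin remodeller, had a peak in all 4 lists. CTCFL, the testis paralog of CTCF, and ADNP had none in any. Of 14 condensin and SMC5/6 genes, 13 carried an untreated SON peak, 11 a 3-day peak, 5 a 6-day peak and 5 an HMGB2 peak. NSMCE1 and NSMCE2 had a peak in all 4 lists and NSMCE4A in none. In the HMGB2 list the strongest peaks of the 39 genes were those of SMC2 with a −log10 p of 91.9, CHD8 with 56.1 and ZNF143 with 23.9. A window of 5 kb can hold peaks that lie in neighbouring genes. In all, 84.6%, 71.8%, 28.2% and 38.5% of the 39 genes carried a peak in the 4 lists, against 57.1%, 41%, 21.5% and 23.3% of all protein-coding genes. The 39 genes were not matched for length. Among genes within the length range of the 10 members, which is not that of the 39, the shares were 67.7%, 48.5%, 25.8% and 25.6%.

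Likeness of pattern was measured as the mean absolute difference of the percentile of the strongest peak, among protein-coding genes with a peak in the same lists, leaving out genes that share a peak with the member. For CTCF, over 4 lists and 2119 genes, STIP1 was the closest at 1.02 percentile points, followed by SETD3 and CCNK, both at 1.21. For STAG1 these were RABGAP1L at 1.38 and ZNF544 and ZNF8, both at 1.43. SETD3 and CCNK had identical percentiles in all 4 lists, as had ZNF544 and ZNF8, so neither pair counts as separate likenesses. Over the 3 SON lists and 1928 genes without an HMGB2 peak, RAD21 was closest to C10orf88 at 0.188, CXXC1 at 0.257 and SMARCA4 at 0.489. SMC1A was closest to STK32B at 0.499, TNFSF8 at 1.13 and MMP24-AS1-EDEM2 at 1.31. With so many genes compared over so few lists, close values are a description of rank alone.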

How the data were processed

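ChIPmentation of SON and HMGB2 in IMR90 cells was read from 4 deposited peak lists, 1 per group, grouped by titles and treatment labels. Bowtie2, MACS2, deepTools and bcl2fastq 2.17 and the build hg38 are named in the submitters' processing notes, without roles; read filters, the control and the depth are not given in the sources used here. The SON lists are IDR output for 2 replicates, judged from their 20 columns. The authors deposited −log10 p per line and replicate, −log10 of the local and global IDR, and a score that is the scaled global IDR. The HMGB2 list has 10 columns. For it the authors deposited fold enrichment, −log10 p and −log10 q, with a q cutoff of 0.03 in the peak names. IDR tools, cutoffs and pooling are not stated.

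Gene spans and promoter windows came from RefSeq tables of GRCh38.p14. A gene carried a peak if at least 1 bp overlapped its span or 5 kb on each side. For the 4159 of 19970 protein-coding genes without a promoter entry, RAD21 included, both gene ends stood for the start. Coordinates are 1-based. The overlap count was tested on simulated data and equalled a direct count for 400 of 400 genes. The members, the lists and the comparisons were chosen with earlier results of these data known, and the motifs after the promoter letters were seen. Named related genes were those with a peak in all lists or in none and the 3 strongest per list, beside MAU2 and ESCO1, named after their values were seen. No test was run, as each group has 1 list. Alternatives covered the window, the overlap and the selection of peaks. Scripts used matplotlib 3.10.9, pandas 2.3.3, numpy 2.4.6 and scipy 1.17.1 under Python 3.11.15.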

Additional observations from a re-analysis of the deposited data

How the results depend on the processing

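With 1 list per group no replicate could be left out, and no paired analysis was possible because each group has 1 list. With a global IDR of at most 0.01 the number of genes with an untreated or 3-day SON peak changed most. It fell from 9 to 6 of the 10 genes (against 30.8% of all genes) and from 7 to 5 of the 10 (against 14%). The 5481 strongest untreated peaks also left 6 of the 10, against 26.2%. At 6 days, where 4 genes carried a SON peak, 2 did with a global IDR of at most 0.05 (RAD21 and STAG1, against 5.02% of all genes) and 1 with at most 0.01 (RAD21, against 2.68%), leaving 2 and 1 peaks of 6. HMGB2 peaks were listed at 4 of the 10 genes. With no flank they remained at 1 of the 10 (STAG2, 1 peak, against 15.6% of all genes). Among peaks of at least median strength they remained at 2 of the 10 (CTCF and STAG2, 2 peaks, against 13.8%). The 17 untreated SON peaks became 8 within 1 kb of a start, 10 among peaks of at least median strength, 7 among the 5481 strongest and 8 with an IDR of at most 0.01, and the 9 peaks at 3 days became 5 with the latter. Restricting the background to genes within the length range of the members moved it from 57.1% to 67.7%, from 41% to 48.5%, from 21.5% to 25.8% and from 23.3% to 25.6%. Lengths within that range were not matched. Depth is unknown, so a peak missing from a list cannot be told apart from one below the threshold of that library.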
